A study of Mus musculus with 6 samples.

Results

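The comparison described here sets a line of P19 cells that expresses AICD (AICD/P19) against a control line that carries the empty vector alone (pCDNA/P19), over every state in which the lines were sampled. P19 is a mouse embryonal carcinoma line, a tumour-derived cell that grows as undifferentiated stem-like cells and forms neurons when it is aggregated with retinoic acid. All 6 samples of the series enter the comparison, 3 arrays per line, paired by the state of the cells. The undifferentiated cells were grown without retinoic acid, the aggregated cells were kept as aggregates with all-trans retinoic acid for 4 days, and the differentiated cells were then replated and grown for 2 more days. There was 1 array for each line in each state, total RNA labelled with Cy3. The labels speak of lines and do not say whether a line was 1 clone or a pool, so an effect of AICD and any other difference between the lines cannot be told apart. Nothing in the labels says how the transgene was driven or that the arrays came from separate cultures. The p-values below measure the variation of the line difference between the 3 states, not a spread between replicate cultures.

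AICD is the intracellular domain of the amyloid precursor protein APP, which gamma-secretase releases from the membrane after another protease has removed the ectodomain. The fragment is short-lived, binds the adaptor Fe65 (the product of Apbb1) and can enter the nucleus, where it has been proposed to act on transcription with Fe65 and the acetyltransferase Tip60 (Kat5). Retinoic acid acts through nuclear receptors and, in aggregated P19 cells, sets off loss of the pluripotent state, posterior Hox gene expression and neurogenesis.

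Levels are given as normalized log2 signal, the log2 of the processed signal of a probe minus the log2 of its array's 75th percentile. A difference is the AICD level minus the vector level of the same state, on the log2 scale. Values given as a run of 3 stand in the order undifferentiated, aggregated, differentiated. Feature Extraction, the scanner software, calls a spot well above background or not, and between 62.0% and 65.9% of the spots on an array were well above background. The 6 arrays lie on 2 slides, the undifferentiated pair on the first and the other 4 arrays on the second, so the slide is part of the state and each slide holds both lines. The summed level of 21 measured pluripotency genes, as a multiple of the array's 75th percentile, went from 332 to 117 and 77.7 in the vector line and from 304 to 139 and 107 in the AICD line. That of 19 neuron markers went from 18.8 to 68.4 and 316 in the vector line and from 19.2 to 119 and 241 in the AICD line, so pluripotency genes were high in the undifferentiated arrays and neuron markers in the differentiated arrays of both lines.

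Of 13381 genes tested, 47 differed between the lines by limma with the state as a block (adjusted p under 0.05, Benjamini-Hochberg over all genes; 0.351% of genes). The AICD line had the higher level of 28 (0.209%) and the lower of 19 (0.142%). Of the 47, 16 were well above background on every array, and the other 31 were dim on at least 1 array. The count depended on which states were fitted. Leaving out 1 array takes its whole state out of the paired estimate, so the fit rests on the remaining states. Without either aggregated array limma called 0 genes, with 1054 at an unadjusted p under 0.05. Without either differentiated array it also called 0, with 1270 at that threshold. Without either undifferentiated array it called 97, from the later states, which share a slide. With no filter on dim probes it also called 0, with 1843 at an unadjusted p under 0.05. On all 6 arrays 1673 genes (12.5%) had an unadjusted p under 0.05, the share to set beside the counts of this kind given for gene classes below. For the counts of called genes in a class the share to set beside them is 0.351%. A second description needs no test. Among the 11481 genes that all arrays detected, called well above background, 158 were at least 2-fold apart in the same direction in each of the 3 states (1.38%), with the AICD line above the vector line in 82 (0.714%) and below it in 76 (0.662%). Of these 158, 37 were at least 4-fold and 5 at least 10-fold apart in every state. With normexp background correction all 158 kept their direction and 87 stayed at least 2-fold apart in each state. These are bulk samples, in which fewer cells of a type and less RNA per cell cannot be told apart.

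The largest differences past the test among genes detected everywhere were those of Plin2, Igf2r, Gramd1a and Ctsc. These are single genes of lipid droplets, lipid transfer and lysosomes. Their classes as a whole had median differences of 0.005 (lipid droplets and carriers) and 0.06 (lysosome), against 0.002 for all genes tested. Plin2 coats lipid droplets and protects their triglyceride from lipases. It lay at -2.08, -2.73 and -3.12 on the vector arrays and at 3.37, 2.55 and 1.76 on the AICD arrays. Every AICD value was above every vector value, and the level was lower in each later state in both lines. The difference was 5.45, 5.28 and 4.88 in the 3 states (5.21 ± 0.17, limma estimate ± standard error; adjusted p = 0.0266; n = 3 arrays per line). Gramd1a, an endoplasmic reticulum protein that moves cholesterol from the plasma membrane, lay at -2.25, -2.04 and -0.55 in the vector line and at 2.02, 3.19 and 3.97 in the AICD line, where each state had a level above the last. The difference was 4.27, 5.22 and 4.53 in the 3 states. Ctsc, the lysosomal peptidase cathepsin C, lay at -1.75, -4.93 and -5.53 against 1.85, -0.68 and -1.35; in both lines the undifferentiated array was the highest, and the arrays of the lines narrowly did not overlap. Its difference was 4.01 ± 0.19 (adjusted p = 0.0279).

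On the lower side stood Igf2r, the receptor that carries Igf2 and mannose-6-phosphate-tagged hydrolases to lysosomes and is imprinted in mice. Its level was nearly constant in the vector line (-0.02, -0.10 and 0.26) and low in the AICD line (-4.61, -4.91 and -5.46), a difference of -5.04 ± 0.27 (adjusted p = 0.0295). Plin2 and Igf2r were called under all alternatives run on the 6 arrays except the one with no filter on dim probes. Their promoters are shown because these are the detected genes with the largest called differences in each direction, and because both hold the E-box CACGTG, the site of basic helix-loop-helix factors such as USF and the MYC and TFE families. The sequences are from RefSeq, build GRCm38.p6, from 250 bases before to 50 after the start of the gene, written 5′ to 3′ on the gene's strand: chr4:86670010-86670309, minus strand, for Plin2 and chr17:12769657-12769956, minus strand, for Igf2r. Capitals mark, on both strands, the E-box CACGTG, the core GTGGGAA bound by the Notch effector Rbpj, the CCAAT box bound by NF-Y, the element TATAAA of core promoters, and GGGCGG, bound by Sp1.
Plin2: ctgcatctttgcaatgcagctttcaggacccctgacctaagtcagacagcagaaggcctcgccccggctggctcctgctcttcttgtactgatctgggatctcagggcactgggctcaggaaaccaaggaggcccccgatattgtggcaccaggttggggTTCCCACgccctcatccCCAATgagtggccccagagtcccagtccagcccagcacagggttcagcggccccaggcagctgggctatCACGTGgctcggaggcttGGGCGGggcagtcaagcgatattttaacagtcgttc
Igf2r: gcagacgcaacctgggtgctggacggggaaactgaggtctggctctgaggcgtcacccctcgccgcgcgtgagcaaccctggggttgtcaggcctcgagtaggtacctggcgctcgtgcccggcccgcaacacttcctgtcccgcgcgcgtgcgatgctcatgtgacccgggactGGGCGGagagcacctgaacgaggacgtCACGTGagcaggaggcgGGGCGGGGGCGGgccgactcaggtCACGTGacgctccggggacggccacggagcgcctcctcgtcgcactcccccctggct
The Plin2 window holds 4 matches, 1 of each motif but TATAAA. The Igf2r window holds 5, 3 of GGGCGG, a pair of which abut, and CACGTG at 2 places. A match describes letters only.

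The same motifs were counted over the promoters of the consistent genes and of all genes. CACGTG stood in 9.18% of 98 promoters of genes at least 2-fold higher in all states, in 10.4% of 77 promoters of those at least 2-fold lower and in 9.36% of 13646 promoters of all genes tested. RefSeq promoters were matched by symbol for 66 of the 82 higher, 56 of the 76 lower and 10689 of the 13381 tested genes, and a gene can have several. GTGGGAA stood in 4.08%, 10.4% and 6.13% in the same order, CCAAT in 29.6%, 35.1% and 37.9%, TATAAA in 9.18%, 11.7% and 8.54%, and GGGCGG in 57.1%, 67.5% and 59.1%.

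**Figure D1:**
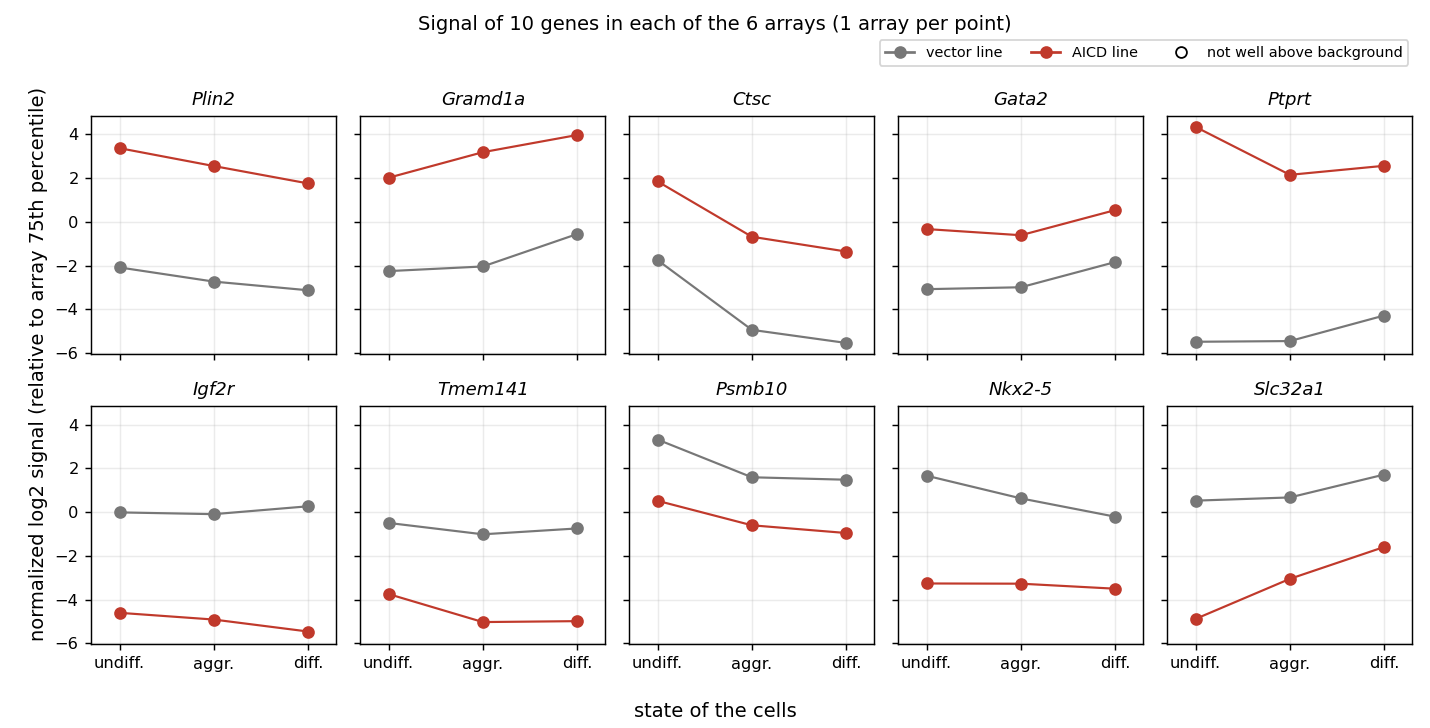
Normalized log2 signal (vertical axis) of 10 genes well above background on all 6 arrays, in the undifferentiated, aggregated and differentiated states (horizontal axis); each point is 1 array, grey for the vector and red for the AICD line. The lines run apart in every state, with Plin2 between 1.76 and 3.37 in the AICD line and between -3.12 and -2.08 in the vector line.

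The remaining called genes that were detected on all arrays had smaller differences, again alike in the 3 states. Klhl22, which brings substrates to a cullin ubiquitin ligase, lay at -3.85, -4.82 and -4.18 in the vector line and at -0.86, -1.16 and -1.11 in the AICD line. Tspan6, a tetraspanin of multivesicular bodies, was well expressed in both lines (0.00, 0.99 and 0.37 against 3.07, 3.36 and 3.17). Gata2, a zinc finger factor of blood progenitors and of some neurons, lay at -3.07, -2.99 and -1.83 against -0.33, -0.61 and 0.54, and its second probe gave 2.62, 1.95 and 2.10. In all 3 cases the lowest AICD array stood above the highest vector array. Arrays of the lines did not overlap in 4.44% of the 11481 genes detected on all arrays. Picking genes by the test favours this, and nothing is read from it. Among metabolite carriers, the mitochondrial ATP-Mg carrier Slc25a24 lay at -0.67, -1.54 and -1.68 against 1.22, 0.60 and 0.52, and the lysosomal heme exporter Slc48a1 at -0.44, -0.88 and -1.37 against 1.35, 1.14 and 0.46, with 0.72, 1.42 and 0.76 from its second probe. Ankrd26 had a nearly constant difference, 1.62, 1.64 and 1.60. On the lower side, Tmem141 lay at -0.50, -1.02 and -0.75 in the vector line and -3.75, -5.03 and -4.99 in the AICD line, and Cdyl2, a chromodomain protein that binds methylated histones, at -0.33, 0.16 and 0.14 against -3.18, -3.50 and -3.12. Psmb10, an inducible subunit of the immunoproteasome, lay at 3.31, 1.59 and 1.48 against 0.51, -0.61 and -0.96, with the highest level of each line in the undifferentiated state. B4galt4, a galactosyltransferase of the Golgi, had the differences -2.51, -2.25 and -2.47. Those of Sil1, the exchange factor of the chaperone BiP, were -2.30, -2.20 and -2.19, and those of the calcium-dependent kinase Camk4 -2.29, -2.07 and -2.36. The adjusted p of these 12 genes lay between 0.0295 (Sil1 and B4galt4) and 0.0432 (Ankrd26).

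Many of the 31 other called genes were near background in 1 line and clearly expressed in the other. Alkbh3, a dioxygenase that repairs alkylated DNA and RNA, was dim on the undifferentiated and aggregated vector arrays and well above background on the other 4, at -5.49, -5.77 and -5.29 against 0.64, 0.54 and 0.15. It was at least 70.1-fold and 79.5-fold higher in the first 2 states and had a difference of 5.44 in the differentiated state (adjusted p = 0.0266), and its second probe gave 6.36, 5.79 and 5.55. Ccn2, the matricellular connective tissue growth factor, lay at 4.97, 3.09 and -0.29 in the AICD line and at -1.5, -2.68 and -5.63 in the vector line, where the differentiated array was dim. Its level was highest in the undifferentiated and lowest in the differentiated state in both lines, and the AICD line stayed above by 6.47 and 5.77 and then by at least 40.5-fold.

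Homeobox genes were among these 31. Of 138 homeobox genes tested, 3 were called higher and 0 lower by limma, against 0.209% and 0.142% of all genes. Of these 3, Hoxb13 and Barx1 passed the filter on dim probes only through the AICD arrays, so nothing is read from the count. Hoxb13, the most posterior gene of its cluster, lay at 0.88, -0.53 and -2.38 in the AICD line, while the vector line was above background in the undifferentiated state alone (-5.39, -6.25 and -7.67). Barx1, a factor of stomach and tooth mesenchyme, lay at -1.66, -1.65 and -1.31 in the AICD line and was above background only on the differentiated vector array, with bounds of 14.7-fold and 19.5-fold in the earlier states. Dbx1, which marks progenitors of interneurons in the neural tube, lay at -3.45, 4.56 and 3.15 in the AICD line against -7.67, -1.27 and -1.65 in the vector line, where the first array was dim; in both lines the arrays after retinoic acid were the high ones. A placental homeobox gene outside that class as defined here, Esx1, was also called (2.09, -0.12 and 0.20 against -2.98, -5.88 and -4.69, dim on the aggregated vector array; adjusted p = 0.0268).

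The other genes called higher were of mixed function; differences that include a dim array are measured values near background. Lactb2, a mitochondrial ribonuclease, had the differences 3.65, 3.43 and 3.61 (dim on the differentiated vector array), the olfactory receptor gene Olfr890 4.17, 3.76 and 3.97 and the red cell membrane glycoprotein gene Gypc 4.75, 6.40 and 5.06; both of the latter were dim on the aggregated and differentiated vector arrays. Signals of the extracellular space were represented by Penk, the precursor of enkephalins (3.25, 2.48 and 3.13), and Dhh, the hedgehog ligand of Schwann and Sertoli cells (2.61, 2.41 and 3.07), each dim on the same pair of vector arrays. Crct1 (2.40, 3.06 and 2.58) was dim on the aggregated vector array alone. The cartilage protein gene Matn3 was detected in both lines in the undifferentiated state, with a difference of 2.91, and in the AICD line alone in the aggregated state. Genes called lower were likewise diverse. Zrsr1, an imprinted, intronless gene for a splicing factor of the U2af family, lay at -0.40, -0.32 and 0.78 in the vector line and was above background on the differentiated AICD array only (-5.79, -6.51 and -5.35). Hps1, which acts in the making of lysosome-related organelles, had -2.31, -2.27 and -2.32, Tmem45a -3.00, -3.65 and -3.00 and Wdr17 -3.02, -3.48 and -3.40; each was dim on 1 AICD array. Zc2hc1c was near background throughout, with -5.48, -5.06 and -5.32 in the vector line.

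Detection in 1 line alone is the extreme of this pattern. Detection on all 3 arrays of a line and on none of the other was found for 52 of the 13381 genes (0.389%), 19 in the AICD line and 33 in the vector line, and 12 of them were among the 47 called. Such genes passed the filter on dim probes only through the line that detected them, so their calls add no support. The same holds for called genes that the other line detected on at most 1 array. They include Alkbh3, Hoxb13, Barx1, Gypc, Penk, Dhh, Olfr890 and Matn3 on the higher side and Zrsr1 and Zc2hc1c on the lower. Slc10a6, a carrier of steroid sulfates, lay at -0.71, 1.95 and 2.33 in the vector line, where it was higher in both later states, and below -7.7 on every AICD array (-7.90, -7.71 and -7.86), at least 33.5-fold, 207-fold and 304-fold lower. Nid1, which links laminin and collagen IV in basement membranes, lay at 0.28, -0.63 and 0.85 against -7.99, -7.97 and -8.12. Ntpcr, a nucleoside triphosphatase, was at least 26.1-fold, 14.2-fold and 13.3-fold lower in the AICD line. Ahrr, the repressor of the aryl hydrocarbon receptor, lay at -2.88, -3.14 and -3.80 in the vector line, Zfp182 at -3.68, -2.91 and -2.50 and Oas1c at -2.0, -4.47 and -3.94, with bounds over the 3 states of 5.83-fold, 6.89-fold and 5.08-fold. Evc, a protein of the ciliary base that acts in hedgehog signalling, was called with a bound of 1.19-fold; its vector level (-5.43, -5.58 and -5.67) was just above the background limit.

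In the AICD line alone, Pmaip1, the BH3-only protein Noxa, lay at -1.35, -2.71 and -2.50 and the receptor-like Ccr1l1 at -3.22, -2.16 and -2.14, the latter with the bounds 6.37-fold, 13.8-fold and 14.6-fold in the 3 states. Thnsl2 lay at -3.87, -2.78 and -3.68, the muscle calpain gene Capn3 at -2.41, -3.98 and -3.70 and the carboxylesterase gene Ces1c at -3.40, -4.94 and -4.84, with bounds of 5.68-fold, 6.0-fold and 2.94-fold. These 5 passed the test, after the filter on dim probes admitted them through the AICD arrays alone. Genes with the same detection that did not pass included Nr2e1, which keeps neural stem cells proliferating (-5.44, 0.05 and -2.25; adjusted p = 0.203), the forebrain and skeletal homeobox gene Dlx5 (-2.48, -4.83 and -2.59; 0.160), Kbtbd7 (-3.37, -3.33 and -3.22; 0.0567), Mettl7a1 (0.0581) and Rgcc (0.0933). In the vector line alone without passing stood Rbp4, the plasma carrier of retinol (1.01, -1.42 and -3.62; adjusted p = 0.107), Slc27a2, which activates very long fatty acids (-0.71, -3.25 and -2.41; 0.0605), Mdga2, a neuronal adhesion protein (-1.02, -2.74 and -3.88; 0.0831), and the histone gene H2bc21 (-5.38, -1.60 and -1.64; 0.160). In the vector line Rbp4 and Mdga2 were lower in each later state, and H2bc21 was higher in both later states.

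**Figure D2:**
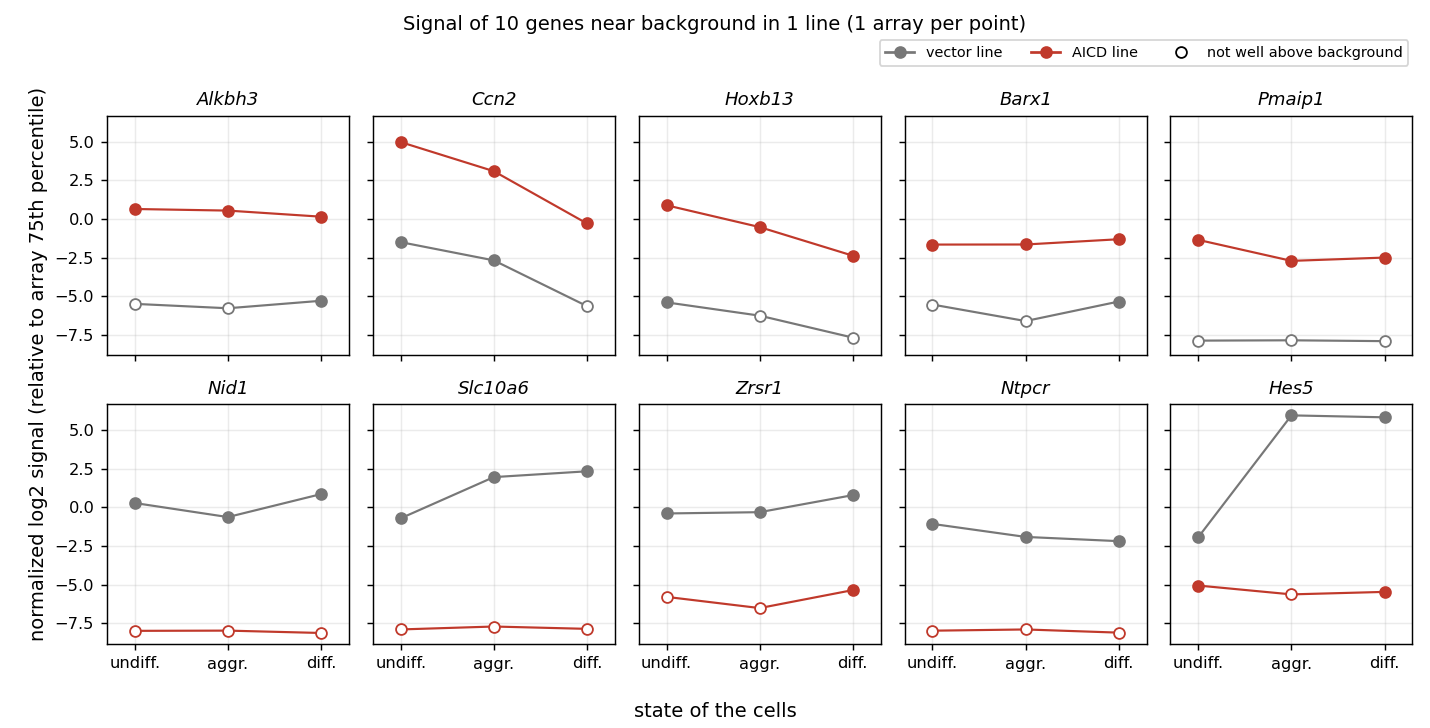
Normalized log2 signal (vertical axis) of 10 genes that were not well above background on at least 1 array of a line, by state (horizontal axis); each point is 1 array, grey for the vector and red for the AICD line, and open points were not well above background. Nid1, Slc10a6 and Ntpcr have open points on all 3 AICD arrays, Pmaip1 on all 3 vector arrays.

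Most of the 158 genes at least 2-fold apart in every state were not called by limma; the 16 called genes detected on all arrays are all among them. Ptprt, a receptor tyrosine phosphatase of neuronal adhesion, had the largest difference of the 158: -5.48, -5.45 and -4.28 in the vector line against 4.34, 2.15 and 2.57 in the AICD line, a difference of 9.82, 7.60 and 6.84 (adjusted p = 0.0541). Also far apart in every state were Ccbe1, a secreted factor of lymphatic growth (2.76, 2.77 and 4.79; a second probe gave 2.15, 2.64 and 4.33), Tfpi, the inhibitor of tissue factor (4.16, 3.08 and 2.75), and Calr3, a chaperone otherwise known from the testis (4.36, 2.58 and 3.13). Kcns3, a modifying subunit of potassium channels, went from 6.57 to 2.45, and Rasgrp3, an activator of Ras, had 6.66, 2.36 and 4.12. On the lower side, Slc32a1, the vesicular transporter of GABA and glycine, lay at 0.52, 0.67 and 1.71 against -4.88, -3.05 and -1.60. Csf2ra, the alpha chain of the GM-CSF receptor, lay at 2.19, 3.36 and 3.92 against -0.91, -1.28 and -0.52, and the mitochondrial carrier Sfxn3 at -0.86, -0.67 and 1.09 against -4.15, -4.16 and -4.02. Syce2, part of the meiotic synaptonemal complex, lay at 3.06, 2.21 and 0.19 against -3.55, -2.93 and -2.49, and Ttc30a1, which acts in transport along cilia, had -5.63, -2.70 and -3.80. Afap1l1 had -4.22, -2.96 and -2.38. The adjusted p of these 12 genes ran from 0.0541 (Ptprt) to 0.197 (Rasgrp3).

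Other probes were measured for 59 of these 158 genes. The mean over the states had the sign of the main probe in 59 of 59, the sign was the same in each state in 58, and the other probes were also at least 2-fold apart in each state in 39. The gene with a changed sign was Hoxb3. Under quantile normalization, as under normexp, all 158 kept their sign, and 152 stayed at least 2-fold apart. The median level of the 158 was -1.35, against 0.61 for all 11481 genes, so they were dimmer than most. In 97 of the 158, and in 510 of the 11481 genes (4.44%), every array of a line stood above every array of the other; the rule that chose the 158 favours this, and nothing is read from it. In the others a state of the lower line reached the level of another state of the higher line. At the threshold, the members just inside had smallest differences of 1.02 (Alas1, Nt5c, Adamts1, Otud7a and Cys1), and those just outside lay between 0.99 and 1.0 (Ccdc15, Amhr2, Parp8, Fabp3 and C8g).

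Transcription factors that pattern the embryo were part of the set. Of 90 homeobox genes detected on all arrays, 6 (6.67%) belonged to it, against 1.38% of all genes; 4 were higher and 2 lower, and the median difference over the 138 tested was 0.10, against 0.00 for all genes. Nkx2-5, a regulator of heart formation, lay at 1.66, 0.62 and -0.21 in the vector line and far below on every AICD array (-3.26, -3.27 and -3.50; adjusted p = 0.0567). Hoxb3 was higher after retinoic acid in both lines, from -3.07 to 3.12 in the vector line and from -5.21 to 2.01 in the AICD line, and had the differences -2.13, -1.12 and -1.54; its second probe, dim on some arrays, gave 0.09, -0.36 and -1.0. The forebrain and eye factor Lhx2 had 1.16, 3.12 and 2.58, the ventral neural tube and oligodendrocyte factor Nkx6-2 1.30, 1.68 and 5.25, and the kidney progenitor factor Six2 1.52, 2.0 and 1.11. With the bounds of dim arrays counted, Barx1, Dbx1, Dlx5 and Hoxb13 joined on the higher side and Hoxd3 (-1.05, -1.74 and -1.14) on the lower. Esx1, above, and Hmx1 (-1.5, -1.02 and -1.27) are homeobox genes that the list did not hold.

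Of 41 detected GATA, T-box, forkhead and Sox factors, 3 (7.32%) were in the set, all higher: Gata2, Gata3 and Tbx1. Gata3, a factor of sensory and sympathetic neurons, trophoblast and T cells, lay at -2.43, -2.52 and -3.71 against 1.53, 0.06 and 1.42. Tbx1, which patterns the pharyngeal arches, lay at -0.02, -2.04 and -2.74 against 2.47, 1.82 and 1.70. The vector level was lower after retinoic acid and the AICD level much less so, and the difference went from 2.49 to 4.44 (adjusted p = 0.0831). Of 60 such factors tested, 1 was called higher and 0 lower. Of 49 detected basic helix-loop-helix genes, Bhlhe22, which acts in cortical and spinal neurons, had 1.54, 3.55 and 2.60 and Twist1, a mesenchymal factor, -1.79, -2.63 and -2.32; 0 of 69 tested were called by limma, with 14 at an unadjusted p under 0.05. The orphan receptor Nr4a2 of dopamine neurons was the only 1 of 29 nuclear receptors in the set (1.90, 1.26 and 1.53). By contrast 0 of 280 detected zinc finger genes of Zfp symbol were, and 1 of 298 tested (Zfp182) was called, lower.

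Heme and iron genes had 4 of 29 detected members in the set (13.8%). Slc48a1 was called higher, 1 of 33 tested. Steap1 and Steap2, metalloreductases encoded by neighbouring genes, had 1.03, 2.64 and 2.64 and 1.34, 2.24 and 1.61, and Alas1, the first enzyme of heme synthesis, had -1.02, -1.32 and -1.35. Second probes gave 1.03, 2.57 and 2.60 for Steap1, 1.02, 1.64 and 0.86 for Steap2 and -0.95, -1.48 and -1.55 for Alas1. Meltf, the membrane-bound melanotransferrin, was dim on the aggregated and differentiated vector arrays, with 2.47 in the first state and bounds of 24.5-fold and 4.37-fold later. Chemokine genes had 2 of 12: the ligand Cxcl12 (0.28, -2.0 and -0.12 against 3.73, 0.37 and 2.24) and Ackr3, a scavenging receptor that binds it. Ackr3 lay at -4.76, -0.31 and 0.83 against 1.85, 1.90 and 2.69; the vector level was low in the undifferentiated state and the AICD level high in all 3, and the difference went from 6.61 to 1.86 (adjusted p = 0.335). Of 23 chemokine genes tested, Ccr1l1 was called.

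Receptors and signalling enzymes were present in both directions. Of 32 detected receptor tyrosine kinases, the epidermal growth factor receptor Egfr had 1.85, 1.15 and 1.28 and the neurotrophin-3 receptor Ntrk3 -1.45, -1.76 and -1.89. The 3 other Egfr probes had the same sign and were under 2-fold in the aggregated state (0.67 to 0.84), and the other Ntrk3 probe gave -0.42, -1.15 and -2.07. Of 25 Wnt ligands and receptors, Wnt7a had 2.34, 4.83 and 2.07 and Wnt3 -2.60, -1.19 and -2.13. Adra2a, an adrenergic receptor, was the only 1 of 49 detected genes in the class of G protein-coupled receptors, mostly of Gpr symbol, (-1.27, -1.84 and -2.07; other probes gave -0.78, -1.66 and -0.70, and -1.19, -1.89 and -2.17). With bounds, Gpr37 and the kappa opioid receptor gene Oprk1 joined on the higher side. Limma called 0 of the 44, 38 and 80 tested in these classes, with 13, 11 and 13 at an unadjusted p under 0.05. Of 34 detected TGF-beta and BMP ligands and receptors 0 were in the set, near the 1.38% of all genes for a class of this size. Limma called 0 of 45 tested, with 7 at an unadjusted p under 0.05.

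Among 206 detected solute carriers, 7 were in the set (3.40%). Beside Slc25a24 and Slc48a1, the polyamine carrier Slc18b1 had 2.27, 2.81 and 2.06, the folate carrier Slc46a1 1.81, 2.65 and 2.10 and the organic anion carrier Slco4a1 1.43, 1.07 and 1.96. With Slc32a1, the amino acid carrier Slc43a1 (-2.64, -1.52 and -1.95) was on the lower side. Of 265 tested, 2 were called higher and 1 lower (Slc10a6). The ubiquitin ligase adaptors had 5 of 191 (2.62%): Klhl22, Asb4 (1.13, 2.64 and 2.72), Fbxo27 (1.51, 1.81 and 2.07) and Fbxw5 (1.46, 1.56 and 1.13) were higher in each state and Fbxw4 (-1.98, -1.26 and -1.59) lower. Of 221 adaptors tested, Klhl22 was the 1 called. Detoxifying enzymes had 4 of 66 (6.06%), split between the directions, and limma called 0 of 100, with 20 at an unadjusted p under 0.05. The glutathione transferase Gstp1 lay at 0.79, -1.45 and -1.51 against 3.29, 2.80 and 2.17, and its second probe gave 4.54, 5.34 and 4.98; Aldh1a1, a retinaldehyde dehydrogenase, had 2.77, 2.29 and 1.37. Mgst1, a membrane-bound glutathione transferase, had -1.82, -1.54 and -2.66 and Ugt8a, which makes galactosylceramide of myelin, -1.78, -2.87 and -2.50. With bounds, Aldh1a7 joined on the higher side and Aldh1a2, the main embryonic enzyme of retinoic acid synthesis, on the lower; Aldh1a2 lay at -3.59, -3.29 and -0.54 in the vector line and at -5.13, -6.53 and -6.17 in the AICD line, where the later arrays were dim. Aldh1a1 and Aldh1a7 are near-identical neighbours, and their probes may share signal.

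**Figure D3:**
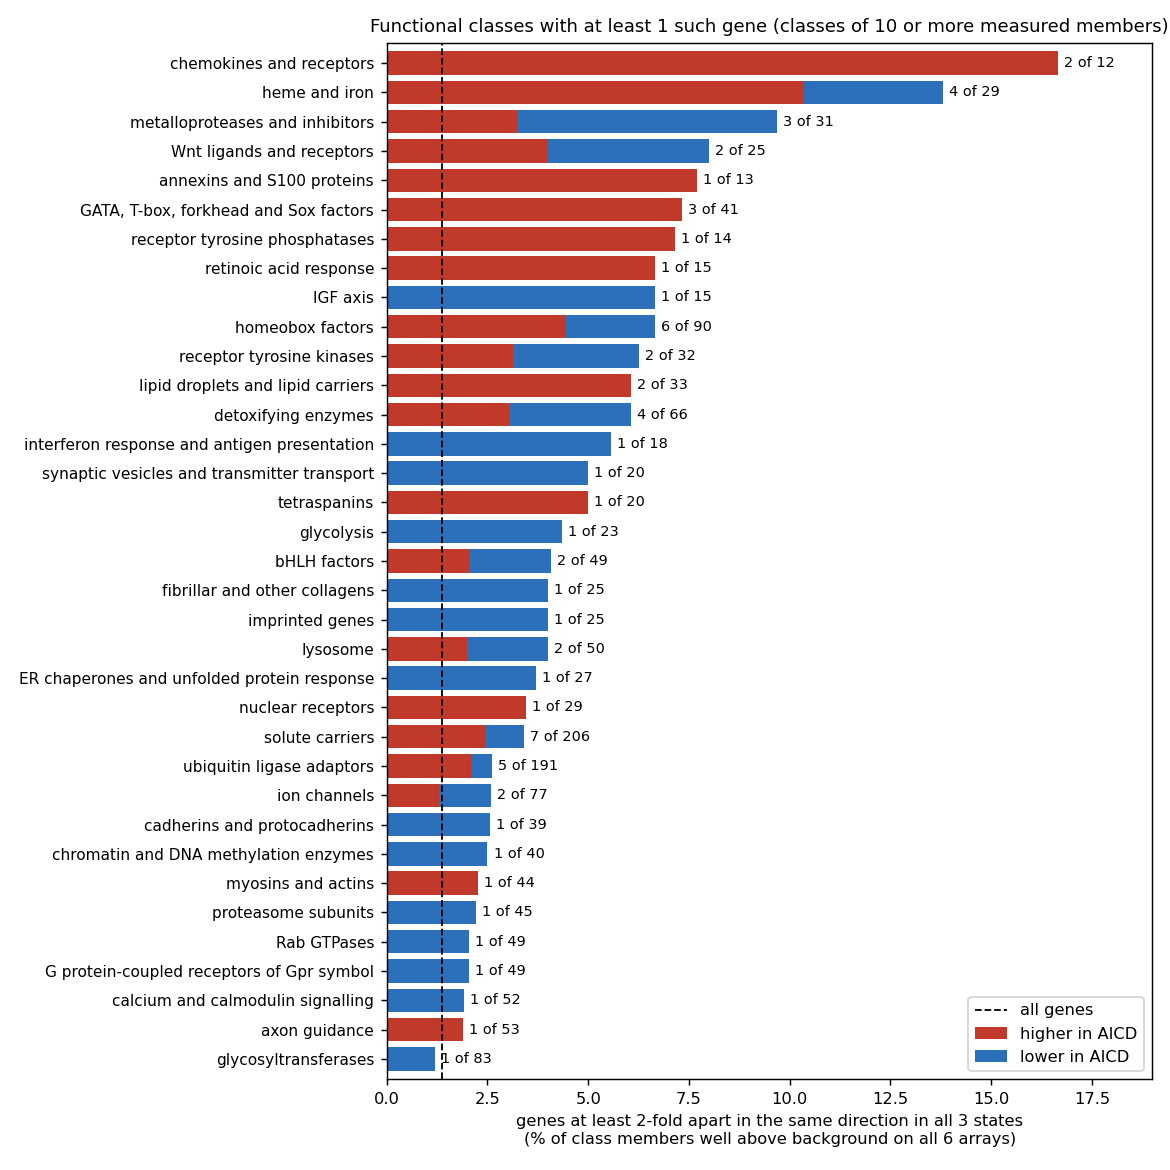
Share of genes at least 2-fold apart in the same direction in all 3 states (horizontal axis, % of members well above background on all 6 arrays) for the functional classes of at least 10 such members that hold 1 or more (vertical axis), red for higher and blue for lower in the AICD line; the dashed line marks all genes, 1.38%. Cell type marker lists, the list of proposed AICD targets and 1 class not reported here are left out; of the classes shown, chemokines and receptors have the largest share, which rests on 2 of 12 genes.

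Several large classes held none. At the 1.38% of all genes, classes of these sizes would hold few or none, so nothing is read from the counts of 0. Of 86 detected genes of the mitochondrial respiratory chain, 75 ribosomal protein genes, 33 of cholesterol and fatty acid synthesis and 36 histone genes, 0 were in the set, and limma called 0 of the 87, 75, 34 and 40 tested, with 4, 0, 3 and 5 at an unadjusted p under 0.05. Proteasome subunits had 1 of 45 in the set, Psmb10. The median difference of the ribosomal protein genes was 0.04 and that of the respiratory chain -0.02. Of the lysosomal class, Ctsc and Igf2r were the only members of 50 in the set, and its median was 0.06; both were called, of 52 tested. Of the lipid droplet and carrier class, Plin2 and Gramd1a were 2 of 33 and the 2 called of 42. Over all genes 1.38% of those detected were in the set and 0.351% of those tested were called, and these counts rest on 2 genes per class. Cidea, a droplet protein of brown fat, joined with bounds (1.49 and 4.27, then at least 22.5-fold; dim on the differentiated vector array) on the higher side, and Rbp4 and Slc27a2, detected in the vector line alone, on the lower side.

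Mesenchyme markers had a negative median difference in both later states. Of 17 mesenchyme markers tested limma called 0, with 5 at an unadjusted p under 0.05, and the median over the 17 was -2.07. Over the 11 detected on all arrays the median was -1.54, and by state 0.19, -1.31 and -2.32. Snai2 and Twist1, factors of epithelial-mesenchymal transition, were the 2 of 11 detected everywhere that were in the set. Snai2 lay at 0.35, -0.88 and -0.12 against -2.41, -5.06 and -5.40 (adjusted p = 0.0953). The summed level of the list was 30.7, 25.7 and 49.4 in the vector line and 36.2, 16.8 and 12.4 in the AICD line, with 13 of 17 members well above background on each of the later AICD arrays and 17 of 17 on the later vector arrays. The sum was lower in the AICD line in both later states, and its part in the differences of other genes was not tested. Of 31 detected metalloproteases and inhibitors, Timp1 had 2.06, 1.70 and 1.15, Mmp14, a membrane-bound collagenase, -1.82, -1.20 and -1.33, and Adamts1 -1.02, -1.46 and -1.43. Second probes gave 2.46, 1.99 and 1.54 for Timp1, -0.95, -1.04 and -0.996 for Mmp14 and -0.49, -2.17 and -1.51 for Adamts1. The collagen gene Col11a2 had -1.07, -1.31 and -1.29, but -0.03, -0.09 and -0.03 on a second probe that was well above background on all arrays, and the protocadherin gene Pcdh17 -2.09, -1.77 and -2.54.

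Neuronal genes in the set differed in direction from each other. Rbfox3, which encodes the nuclear marker NeuN, was the only 1 of 16 detected neuron markers in the set (-1.96, -1.0 and 1.35 against -4.55, -3.04 and -2.08). The median of these 16 was -0.11, 0.78 and -0.35 in the 3 states. Eno2, the neuronal enolase, had -1.79, -3.62 and -2.91, and Rab33a, a Golgi GTPase highest in the differentiated vector cells, lay at -1.58, -0.49 and 2.06 against -2.67, -2.29 and -2.66. Chosen after their values were seen, Lrrk2, a kinase mutated in familial Parkinson disease, had 1.90, 1.79 and 1.40, and Nrgn, the postsynaptic neurogranin, had 4.54, 1.46 and 1.11. Notch pathway genes had 0 of 21 detected members in the set, near the 1.38% of all genes for a class of this size. Limma called 0 of 27, with 8 at an unadjusted p under 0.05. With bounds, 2 joined on the lower side. Hes5, a Notch target of neural progenitors, reached 5.94 and 5.82 in the later vector arrays and lay at -5.06, -5.63 and -5.47 in the AICD line, with -3.13 and -11.28 in the outer states and at least 3041-fold less in the aggregated state (adjusted p = 0.225). Dtx1, a ligase of the pathway, had -4.91 in the undifferentiated state and was at least 74.4-fold and 496-fold lower later.

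The size of a consistent difference still depended on the state. In undifferentiated cells 819 of 11481 genes were at least 2-fold apart, in aggregated cells 716 and in differentiated cells 850, and the 158 made up 19.3%, 22.1% and 18.6% of these. In all 1615 genes were at least 2-fold apart in some state, 406, 251 and 365 in the undifferentiated, aggregated or differentiated state alone. A difference of constant sign was found for 35.3% of the 11481 genes, positive for 1952 and negative for 2098. Within the set, the difference was largest before retinoic acid for 51 genes, after aggregation for 51 and after replating for 56; it grew over the course in 33 and shrank in 24. The range over the states was under 1 for 88 genes and at least 2 for 27, with a median of 0.92. In the vector line 79.1% of the 158 moved at least 2-fold between states, against 58.1% of all genes. Across genes, which are not independent, the difference of a gene in the undifferentiated state correlated with that in the aggregated state with Pearson's r of 0.38 and with that in the differentiated state with 0.27, and the last pair with 0.55; the later states share a slide.

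**Figure D4:**
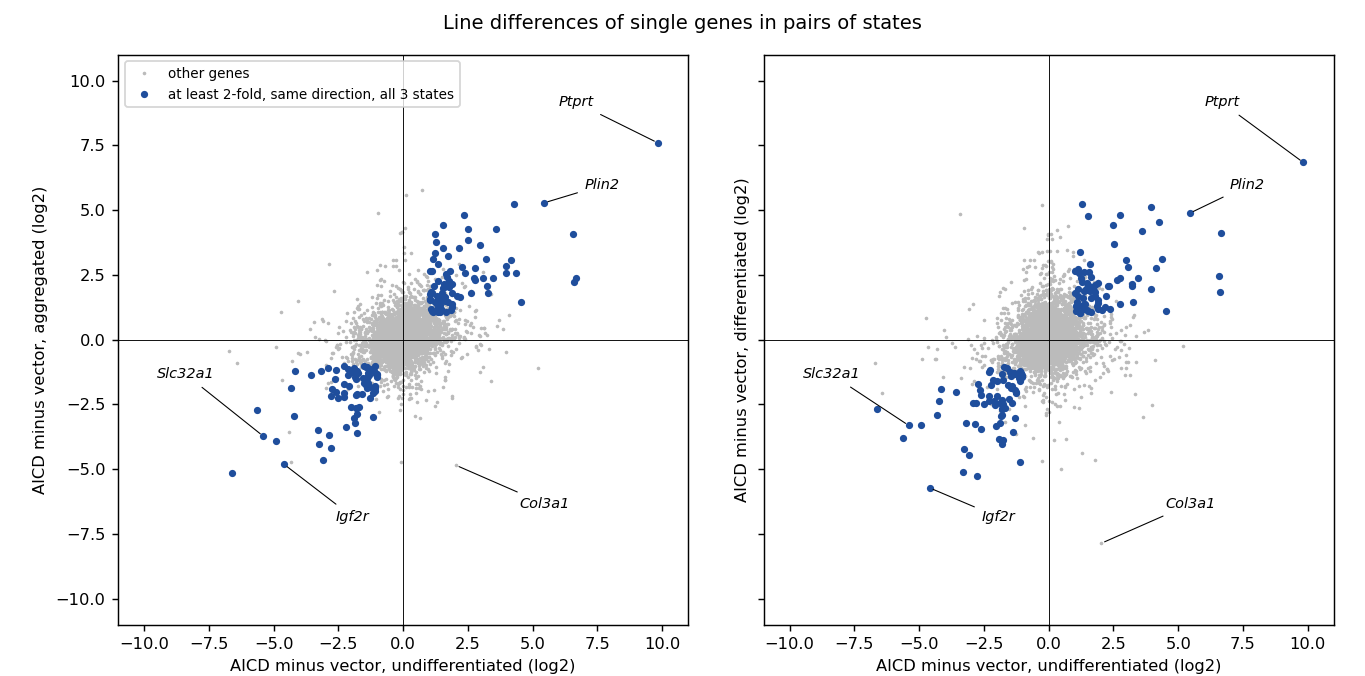
AICD minus vector (log2) of each gene well above background on all 6 arrays in the undifferentiated state (horizontal axis) against the aggregated (left) and differentiated state (right, vertical axes); blue marks the 158 genes at least 2-fold apart in the same direction in all 3 states. Ptprt lies far out at 9.82, 7.60 and 6.84, and Col3a1 has opposite signs at 2.03, -4.85 and -7.86.

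App itself lay at -0.46, 1.42 and 2.86 in the vector line and -0.21, 0.93 and 2.03 in the AICD line. The level was higher in each later state in both lines, and the line difference (0.25, -0.49 and -0.82; adjusted p = 0.645) changed sign. The sources used here do not place its probe relative to the expressed fragment, and the transgene itself was not checked. Of 22 detected genes of the APP family, its adaptors and the secretases 0 were in the set, near the 1.38% of all genes for a class of this size. Limma called 0 of 24, with 1 at an unadjusted p under 0.05. Of 20 genes earlier proposed as targets of AICD, 17 were detected on all arrays, 1 (Egfr) was in the set and limma called 0, with 1 at an unadjusted p under 0.05; their median was 0.02.

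Neighbouring genes often had differences of 1 sign, also outside the set. The whole-chromosome shares below were computed after seeing the data and are a description. Chromosomes are named here by their last tested gene, since the neighbour table and the array are of different builds. On the chromosome that ends with Rfc3, 371 of 827 tested genes (44.9%) had a negative difference in all 3 states and 35 (4.23%) a positive one, against 18.6% and 17.2% over all genes tested (18.1% and 19.6% under quantile normalization). Its median difference was -0.25, -0.21 and -0.21 in the 3 states. The share of genes lower in all states was 35.9% on the chromosome ending with Gm20767 and 32.6% on that ending with Tmx3. The opposite was seen on the chromosome ending with Bicd1, where 30.6% were higher and 11.4% lower in all states, and on that ending with Vmn2r87, with 29.0% and 8.31%. Under normexp and quantile normalization the share lower on the chromosome of Rfc3 was 43.9% and 44.7%. Of the 158 genes that chromosome carries 4 higher (Steap1, Steap2, Sema3e and Sorcs2) and 4 lower (Hmx1, Sgsm1, Tmem119 and Daglb), and of the 47 called it carries Evc, Slc10a6 and Oas1c, all lower.

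Shorter stretches were picked by their medians and are likewise a description. Over windows of 21 neighbouring tested genes, the median difference had a standard deviation of 0.13 between 12964 windows, and 34 windows lay past 0.5 in size; with 11 genes 108 did, and with 41 genes 1 did. The highest with 21 genes, from Syap1 to Msl3, had 0.91 with 19 of 21 genes positive and medians of 0.77, 0.74 and 0.74 in the 3 states; it lies within 29 genes from Phka2 to Hccs with a median of 0.64 that include Prps2 (1.12, 1.81 and 1.95) and Msl3 (1.64, 1.05 and 1.07, or 1.30, 0.22 and 1.02 on another probe). With 11 genes the highest median was 1.12, from Mospd2 to Msl3, and with 41 genes the only window past 0.5 in size, from Slf1 to Poc5, had -0.51. A run of 135 genes from Erap1 to Gm20767 had a median of -0.41, with 81 lower in all 3 states, and a run of 67 genes on the same chromosome, from Zfp367 to Lysmd3 with Ahrr among them, had -0.36. A run of 87 genes from Tacr1 to Vmn1r43, with Gata2 among them, had a median of 0.35, with 56 higher in all states. Of 13 pairs of direct neighbours that were both at least 2-fold apart in all states, bounds counted, 9 ran in 1 direction and 4 in opposite directions. The 4 were Slc27a2 and Hdc, Ntpcr and Pcnx2, Edn1 and Phactr1, and Pyroxd2 and Hps1. Those in 1 direction included Ccbe1 and Pmaip1, P3h4 and Fkbp10 (both of collagen modification, lower), Wdr17 and Gpm6a, and the paralogs Csta2, Stfa1 and Cstdc5, whose probes may share signal.

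**Figure D5:**
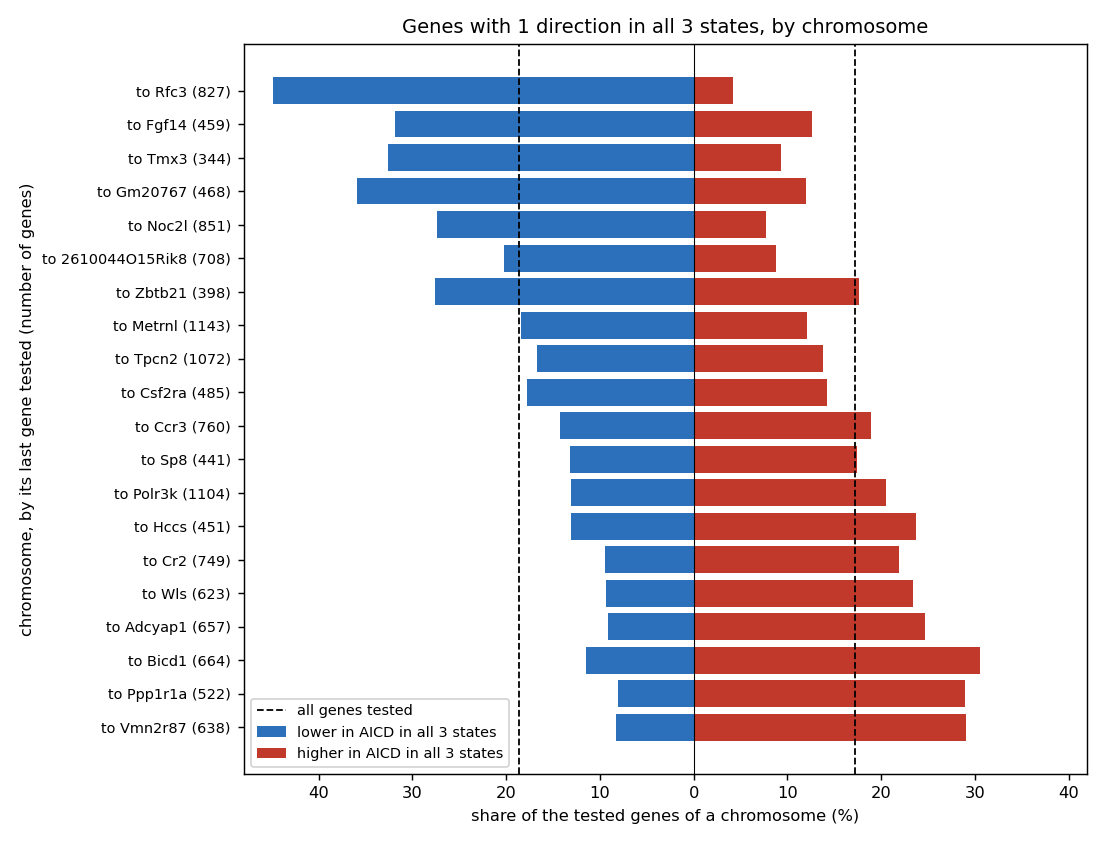
Share of the tested genes of each chromosome (horizontal axis, %) that were lower (blue, left) or higher (red, right) in the AICD line in all 3 states; chromosomes are named by their last tested gene, with the number of genes, and dashed lines mark all genes tested (18.6% and 17.2%). The chromosome ending with Rfc3 has 44.9% lower and 4.23% higher.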

How the data were processed

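RNA of 6 samples was measured on 1-colour Agilent arrays scanned with Feature Extraction 10.1.1.1, per the submitters' processing notes and the file headers, which name the build mm9. The deposited intensity values are the software's processed signal, background-subtracted and detrended within an array and not scaled between arrays, per the file headers. Each was divided by its array's 75th percentile over non-control spots and log2 was taken. Of 41174 probes, 24844 received a symbol (17178 genes) through their RefSeq accession. Spots flagged as outliers were left out, spots of a probe averaged, probes kept if well above background on at least 2 of 6 arrays, and the brightest probe was used for each gene. The model, from limma 3.58.1 under R 4.3.3, had a term for the line (state as a block, 2 residual degrees of freedom), two-sided, with Benjamini-Hochberg adjustment over 13381 genes. The script was tested on simulated data.

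Where 1 line was not well above background, a lower bound of the fold was taken between the bright signal and the dim array's floor, the lowest normalized signal among probes well above background or the dim probe's own if higher; over several states it is the fold between the means of both. Bounds were counted as at least 2-fold only after seeing the data. Genes named are those called, up to 15 per direction among those 2-fold apart, up to 8 per line detected in 1 line, up to 4 per class, and App; others are said to be chosen after their values were seen, which holds also for class members past 4, genes of the chromosome and neighbour paragraphs, and genes at the threshold. Some genes and 1 class that meet these rules are not reported here. The members and the 70 functional classes were chosen with earlier results of these data known. Normexp used the median spot signal and median background, with an offset of 50. Gene order is that of RefSeq for another build (GRCm38), used for neighbours only. The authors' deposited value table holds a score: its listed values behave as log2 relative to the array's percentile and the probe's median, with blanks where that is under 1 in size and negative values written as minus 1 over the value; this reading comes from the values, its scale and centring are not stated, and it was not used for results. No array held a saturated spot, and the number of arrays limits the precision.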

Additional observations from a re-analysis of the deposited data

Results flagged for a closer look

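Some differences changed sign with the state. Of the genes well above background on all arrays, 19 were at least 2-fold apart in every state with signs that differed between states. Col3a1, a fibrillar collagen of connective tissue, went from 2.03 through -4.85 to -7.86, and the adhesion glycoprotein gene Thbs1 had 1.90, -2.19 and 2.26. Nrn1, a neurite growth factor, had 2.96, -1.26 and -1.37, and Cebpd, a factor of the acute phase and of fat cell formation, had -1.67, 1.38 and 1.97. The difference between states was not tested, since a state has 1 array per line.

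The 4 muscle and heart markers well above background on all arrays had a median difference of 0.66 in the aggregated and of -1.21 in the differentiated state. This change of sign rests on few genes and was not tested. The summed level of all 10 measured markers was lower in the AICD line in every state, at 3.79, 1.07 and 1.80 against 5.83, 2.34 and 5.46 times the 75th percentile. Nkx2-5 alone makes up most of the vector sum in the undifferentiated and aggregated states. Its log2 level was 1.66, 0.62 and -0.21 in the vector line and -3.26, -3.27 and -3.50 in the AICD line. The sum therefore does not show that the other markers were lower in these states.

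Probes that received no gene symbol also held such differences, but less often than the named genes. Of 6431 such probes well above background on all arrays, 33 (0.513%) were at least 2-fold apart in the same direction in all states, 17 higher and 16 lower in the AICD line. The share among the 11481 named genes, each by its brightest probe, was 1.38%.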

How the results depend on the processing

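The count of 47 genes was 67 with normexp (25 shared with the 47), 46 with quantile normalization (42 shared), 50 with the median over probes (43), 56 with an intensity trend (41), 47 on probes detected on all arrays (17), 16 without the state block (15) and 0 with no filter on dim probes (1843 at an unadjusted p under 0.05). On the second slide alone it was 97 (30 shared), the same result as without either undifferentiated array, and leaving out 1 array gave 0 to 97. The 158 genes became 87 with normexp, 387 on the second slide alone and 259 to 387 with 1 array left out, where fewer states had to be passed. They became 352 at 1.5-fold, 37 at 4-fold and 266 with bounds counted. The 4050 genes of 1 sign became 7156 on the second slide alone and 6158 to 7156 with 1 array left out. No difference of a named gene and no count above was reversed. Chromosome medians near 0 changed sign with the scaling: that of the chromosome ending with Metrnl went from -0.010 to 0.0079 under quantile normalization, and that of the chromosome ending with Tpcn2 from -0.00035 to 0.012 under normexp and 0.016 under quantile normalization. Of the differences of the genes checked under the alternatives, 594 stayed on their side of the threshold, 355 were no longer past it and 48 came past it. Of class medians 776 moved by less than the spread and 76 by more. The causes were not tested. The first slide alone has 1 array per line and allows no fit. No paired analysis was possible because the labels give no replicate numbers, beyond the pairing by state that the model already has as its block. Genes near background have bounds only.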

Other observations

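Among lists with few or no members in the set, the 17 pluripotency genes detected on all arrays had medians of -0.03, 0.74 and 0.91 in the 3 states. Limma called 0 of 21 tested, with 5 at an unadjusted p under 0.05, against 12.5% of all genes. Gdf3, a TGF-beta ligand of pluripotent cells, lay at 3.52, -4.97 and -2.71 in the vector line and at 4.26, 0.82 and 1.66 in the AICD line, with differences of 0.74, 5.79 and 4.37 (adjusted p = 0.322). Tbx3, which helps to maintain the undifferentiated state, had 2.40, 0.74 and 0.88 (adjusted p = 0.323). Collagen genes ran the other way, with medians of 0.49, -0.25 and -0.97 over the 25 detected on all arrays. Of 32 tested, limma called 0, with 7 at an unadjusted p under 0.05.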
